A study of Mus musculus with 6 samples.

Results

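The genes of 9 fatty acid and sphingolipid desaturases were taken by symbol from the 55385 genes of the deposited tables: Scd1, Scd2, Scd3, Scd4, Fads1, Fads2, Fads3, Degs1 and Degs2. All 9 were found, and 8 of them passed the filter on low counts, the exception being Degs2. The family was chosen by the expected counts and TPM of its genes in these same control and DMHCA libraries, so the difference between groups is given as a description and carries no test for these genes. RNA came from mammary tumors of female NeuT/ATTAC mice, with 3 control and 3 treated libraries that the labels give as separate samples. Every mouse carried a constitutively active rat ErbB2 transgene (allele V664E) under the MMTV promoter, which is active in mammary epithelium, and an FKBPv-caspase-8 fusion under the FABP4 promoter, which is active in fat cells. AP20187 dimerizes the fusion, which triggers the death of fat cells, and was given by injection (0.4 mg/kg) once the mice were 6 weeks old. The treated mice also ate DMHCA, a steroidal agonist of the liver X receptors (LXR), at 0.05% of their food (100 mg/kg) once they were 8 weeks old. The labels call the control treatment AP20187 vehicle and the tissue mammary gland fibrosis, and the description of tumors from AP20187-treated mice in the study's text was followed.

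Desaturases are membrane enzymes that place a double bond in an acyl chain, with electrons passed on from NADH by cytochrome b5 reductase and cytochrome b5. Stearoyl-CoA desaturases (Scd genes) make palmitoleate and oleate, the main monounsaturated fatty acids of triglycerides, phospholipids and cholesterol esters. Fads2 and Fads1 act in turn, with elongases between them, to make arachidonate and other long polyunsaturated fatty acids from dietary linoleate and linolenate, and Degs1 makes ceramide from dihydroceramide. Scd1 is a textbook target of LXR and of SREBP-1c, the lipogenic transcription factor encoded by Srebf1, and it is abundant in fat cells, in liver and in the lactating mammary gland.

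The genes of the first 2 families lie in 2 clusters of chromosome 19 (GRCm38). Scd3, Scd2, Scd4 and Scd1 span 204611 bases from 44203269 to 44407879, with Scd1 alone on the minus strand. Fads3, Fads2 and Fads1 span 155309 bases from 10041569 to 10196877, with Fads2 alone on the minus strand. Degs1 lies on chromosome 1 (182275772 to 182282804) and Degs2 on chromosome 12 (108678711 to 108702315). The Scd transcripts are similar enough to share reads. Of the 50-base windows of the longest Scd1 transcript, 3.03% also occur in Scd2, 3.49% in Scd3 and 1.76% in Scd4. For Scd3 the shares are 4.86% with Scd1 and 3.95% with Scd2. Part of its low count may therefore rest on how RSEM, the authors' counting program, divided reads among the copies, which was not tested. The Fads genes share at most 0.161% of such windows and the Degs genes 0%. The exons of Degs2 overlap those of Evl on the opposite strand by 278 bases, and a strand setting is not given in the sources used here.

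Promoter windows of 300 bases, from 250 bases before to 50 after the RefSeq start site (GRCm38.p6), were found for 6 of the 9 genes and not for Scd1, Scd2 and Fads1. Those of Fads2 and Fads3 are shown because these genes are adjacent and Fads3 alone of them was apart between groups, and that of Scd3 because it starts the Scd cluster. Capitals mark matches on either strand to AGGTCA (the core site of nuclear receptors), AGGTCA repeated after 4 bases (the LXR element) or after 1 base, TCACCCCAC (an SREBP element), CCAAT (NF-Y), CACGTG (an E-box) and GGGCGG (Sp1).
Scd3 (chr19:44203038-44203337, plus strand): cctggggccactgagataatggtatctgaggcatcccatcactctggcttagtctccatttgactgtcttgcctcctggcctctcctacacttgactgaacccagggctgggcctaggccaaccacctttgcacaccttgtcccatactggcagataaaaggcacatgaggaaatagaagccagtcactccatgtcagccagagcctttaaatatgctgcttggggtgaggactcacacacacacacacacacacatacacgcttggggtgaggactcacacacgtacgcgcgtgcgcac
Fads2 (chr19:10101454-10101753, minus strand): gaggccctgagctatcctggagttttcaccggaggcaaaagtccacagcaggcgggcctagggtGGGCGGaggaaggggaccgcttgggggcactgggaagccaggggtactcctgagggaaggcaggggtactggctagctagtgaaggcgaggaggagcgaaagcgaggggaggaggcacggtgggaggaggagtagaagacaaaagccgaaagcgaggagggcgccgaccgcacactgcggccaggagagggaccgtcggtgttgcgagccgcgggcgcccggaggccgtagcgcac
Fads3 (chr19:10041298-10041597, plus strand): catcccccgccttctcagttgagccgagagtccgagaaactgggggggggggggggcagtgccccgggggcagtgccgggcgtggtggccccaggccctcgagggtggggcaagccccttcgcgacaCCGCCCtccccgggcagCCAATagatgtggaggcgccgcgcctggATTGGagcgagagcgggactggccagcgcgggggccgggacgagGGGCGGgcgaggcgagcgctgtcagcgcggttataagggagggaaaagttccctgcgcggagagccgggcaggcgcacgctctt
No capitals stand in the Scd3 window, and that of Scd4 likewise held none of these letters. The Fads2 window held 1 GGGCGG, from 186 to 181 bases before the start site. The Fads3 window held GGGCGG on both strands and CCAAT in both orientations, at 106 to 102 and at 78 to 74 bases before the start. Of the other windows, Degs1 held 1 CACGTG and Degs2 5 copies of GGGCGG. Among all 32851 windows, 35.7% held GGGCGG, 37.4% CCAAT, 7.15% CACGTG, 16.3% AGGTCA, 0.551% TCACCCCAC and 0.015% the LXR element in this strict spelling. The GC content was 54.0% in the Scd3 window, 67.0% in that of Fads2 and 73.0% in that of Fads3, against a median of 52.7% over all windows. A match is only a match of letters in this window.

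Expected counts summed to 46358654 to 63420620 per control library and to 52330938 to 55539411 per DMHCA library. Between DMHCA libraries 1 and 3 the biological coefficient of variation (spread beyond counting error) was 0.0327, against 0.376 to 0.579 in the other 5 pairs within a group. They may come from the same tumor, and were summed and counted as 1 sample, which leaves 3 control and 2 DMHCA samples. The labels do not say more of how these libraries were made, and p-values cover only the spread between these samples. Mitochondrial genes held 3.18% to 4.64% of counts in control libraries and 2.27% to 2.66% in DMHCA libraries. The luminal epithelial markers Krt8, Krt18, Krt19, Epcam, Cdh1, Erbb2 and Elf5 summed to 3458 to 4232 TPM (a level scaled by transcript length and library) in controls and to 5140.1 TPM in DMHCA libraries 1 and 3 and 4919 TPM in DMHCA library 2. Of these 7 markers, 2 (Krt8 and Krt18) were higher by TPM in both DMHCA samples than in any control, and the other 5 overlapped. Over all genes tested, 13.8% were higher and 12.2% lower with DMHCA without overlap, by normalized counts.

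Scd1 was the most abundant desaturase transcript in every sample. It held 208, 113 and 390 TPM in control libraries 1, 2 and 3, and 1823 and 2018 TPM in the DMHCA samples, of which the first is libraries 1 and 3 and the second library 2. By mean TPM it stood at place 534 of all genes in control tumors and at place 76 in DMHCA tumors. Scd2, whose product has the same activity and predominates in brain and developing tissues, held 155, 78.7 and 55.7 TPM in the controls and 455 and 515 TPM after DMHCA. Degs1, Fads2, Fads1 and Fads3 followed, in this order of mean control TPM, with 6.87 to 21.3 TPM for Fads3 in controls. The ranges of Degs1 (38.4 to 41.5 TPM) and Fads2 (31.2 to 40.6 TPM) overlapped in controls, as did those of Fads2, Fads1 and Fads3 with their neighbors in this order. Scd3 was at 1.16 to 3.05 TPM over the 6 libraries, Scd4 at 0.1 to 0.27 TPM and Degs2 at 0.08 to 0.29 TPM.

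**Figure D1:**
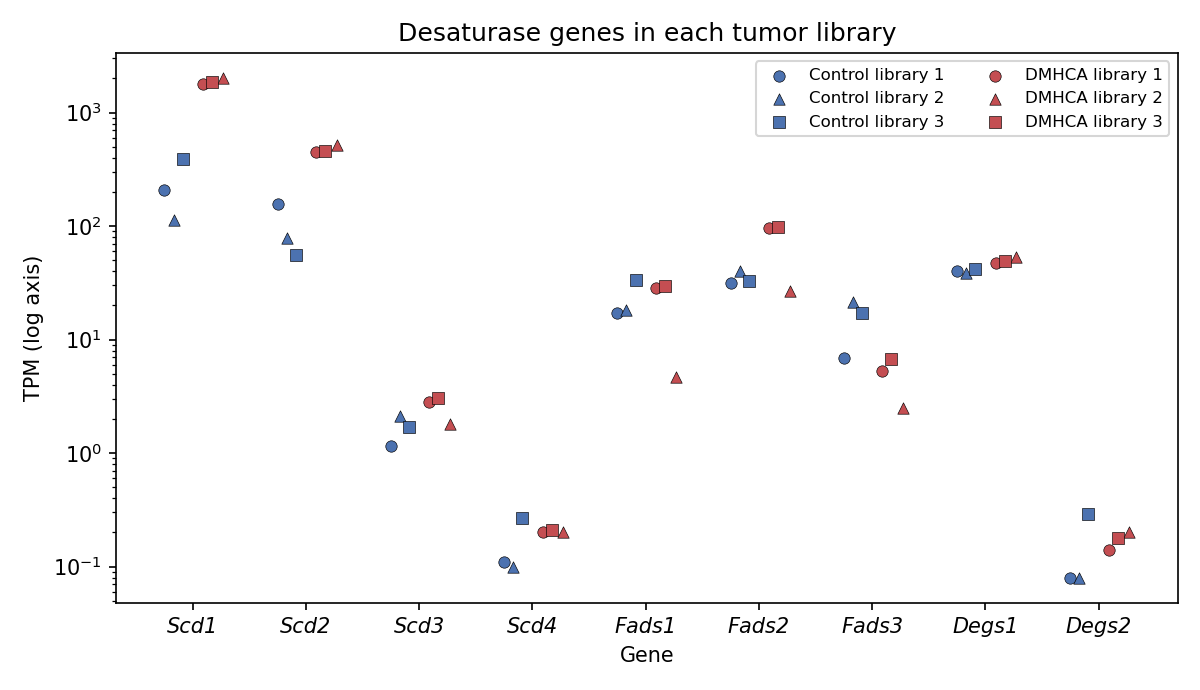
TPM (log axis) of the 9 desaturase genes, with 1 point per library, control libraries in blue and DMHCA libraries in red. The DMHCA points of Scd1 (1797 to 2018 TPM) and Scd2 (448 to 515 TPM) lie above all control points, those of Fads3 lie below them, and DMHCA library 2 (red triangle) lies below the other DMHCA libraries in all 3 Fads genes.

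Changes between groups were taken from expected counts after TMM normalization (normalized counts). These are on the scale of the mean of the 5 samples, of which 1 is the sum of DMHCA libraries 1 and 3. Scd1 (ENSMUSG00000037071) held 44058, 32338 and 89321 normalized counts in the control libraries and 400912 and 404956 in the DMHCA samples. The lower DMHCA sample was 4.49 times the highest control, while the controls differed among themselves by 2.76 times and the DMHCA samples by 1.01 times. The means were 55239 ± 30092 (SD, n = 3) and 402934 ± 2859.5 (SD, n = 2), a 7.29-fold difference (log2 2.87, standard error 0.53). Scd2 (ENSMUSG00000025203) held 37724, 25692.5 and 14551 normalized counts in the controls and 113622 and 117395 after DMHCA. Here too the groups were apart, by 3.01 times between the nearest samples. Its means of 25989 ± 11589.5 and 115509 ± 2668 normalized counts gave a 4.44-fold difference (log2 2.15, standard error 0.45). With 1 library or sample left out, the log2 difference was 2.59 to 3.39 for Scd1 and 1.86 to 2.52 for Scd2.

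The balance between the copies differed among the control tumors. Control library 3 was the highest control for Scd1 and the lowest for Scd2, and its ratio of Scd1 to Scd2 TPM was 7.0, against 1.34 and 1.43 in control libraries 1 and 2. In the DMHCA samples the ratio was 4.01 and 3.92, between these values. Scd1 made up 57.0% to 87.1% of the summed TPM of the 4 Scd genes in controls (mean 67.5%) and 79.9% and 79.6% after DMHCA. The summed TPM itself was 194 to 447 in controls and 2281 and 2535 after DMHCA. The spread of Scd1 among controls, an SD of 0.75 on the log2 scale, was above that of 73.2% of the genes tested, and that of Scd2, 0.69, above 69.9%.

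Fat cells express Scd1 and are the cells in which the caspase-8 fusion acts, so markers of adipocytes are given beside it. The 10 markers Adipoq, Plin1, Cidec, Fabp4, Lep, Retn, Cfd, Plin4, Pck1 and Lipe summed to 321, 138 and 1309 TPM in control libraries 1, 2 and 3, and to 84.5 and 85.0 TPM in the DMHCA samples. Control library 3 was thus the highest control for the markers and for Scd1. It was also the highest control for the summed markers of B cells (284 TPM against 34.5 and 1.48), T cells (239 TPM against 25.3 and 4.05), macrophages (2278 TPM), fibroblasts (1305 TPM), basal epithelium (125 TPM) and secretory epithelium. The DMHCA samples were at 2.91 and 2.52 TPM for B cells, 9.60 and 5.85 for T cells, 1257 and 1009 for macrophages, 656 and 687 for fibroblasts and 62.0 and 47.6 for basal cells. The part of these cells in the Scd1 values was not tested. The DMHCA samples were the lowest for the markers and the highest for Scd1. In 7 of the 10 markers every DMHCA sample lay below every control by TPM, and in 0 above. The shares of all genes, 12.2% and 13.8%, are by normalized counts, a different scale. Adipoq, which encodes the hormone adiponectin, was at 4.84 to 67.3 TPM in controls and at 0.765 and 1.45 TPM after DMHCA. In bulk tissue fewer cells of a type and less RNA per cell cannot be told apart. Of 9 sebaceous gland markers, 5 were under 1 TPM in every sample, among them Awat1, Awat2 and Elovl3, and nearly all of the list's sum came from Mgst1, which many tissues express. Milk protein genes and other markers of secretory epithelium summed to 16840 to 56742 TPM in controls and to 27747 and 12207 TPM in the DMHCA samples, with overlap. The part of secretory cells in the Scd1 and Scd2 values was not tested.

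**Figure D2:**
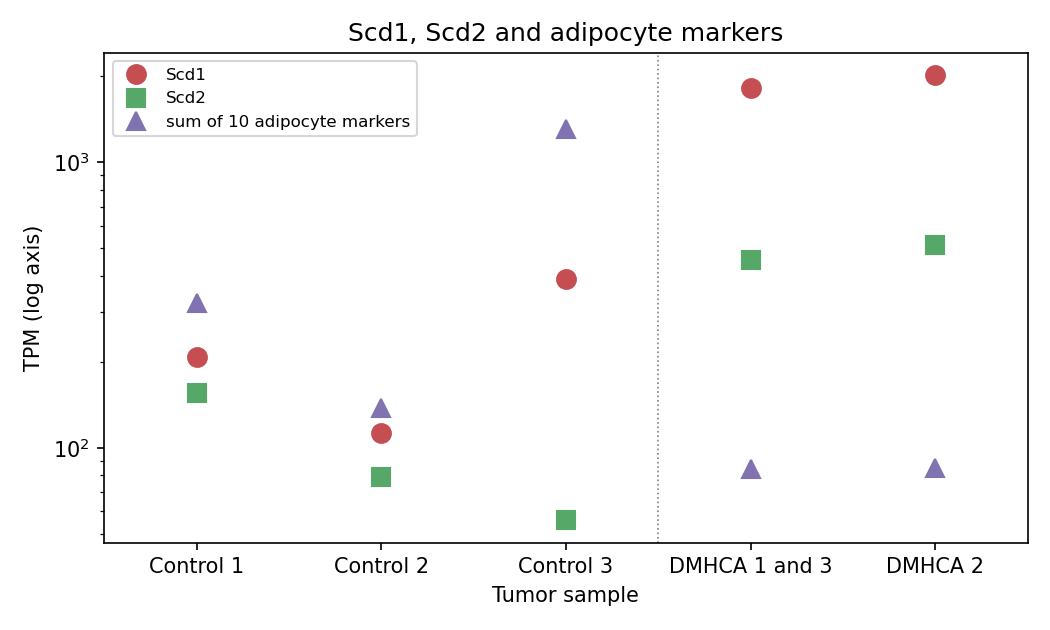
Scd1, Scd2 and the sum of 10 adipocyte markers in TPM (log axis) in the 5 samples, with the dotted line between control and DMHCA samples. Scd1 goes from at most 390 TPM in controls to at least 1823 TPM, while the marker sum goes from at least 138 TPM to 84.5 and 85.0 TPM.

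Scd3, a copy known from skin and the Harderian gland, held 124, 222 and 129.8 normalized counts in controls and 258 and 194 after DMHCA, and the groups overlapped (log2 difference 0.51, standard error 0.51). Scd4, known from heart, held 12.7, 18.2 and 41.5 normalized counts in controls and 27.7 and 23.1 after DMHCA (log2 0.08, standard error 0.70), and the sign of this value turned when control library 1, control library 2 or DMHCA libraries 1 and 3 were left out. These low copies lie between or beside Scd1 and Scd2 in the same cluster. With the 4 genes counted as 1 feature, the log2 difference was 2.67 (standard error 0.42).

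The Fads genes differed from each other. Fads3, a desaturase that introduces a double bond into the sphingoid base of ceramides, held 955, 3709 and 2202 normalized counts in controls and 780.5 and 259 in the DMHCA samples. Every DMHCA sample lay below every control, but only by 1.22 times between the nearest samples, control library 1 and DMHCA libraries 1 and 3. The means of 2289 ± 1379 (SD, n = 3) and 519 ± 369 (SD, n = 2) were 4.40-fold apart (log2 -2.14, standard error 0.72). The log2 difference was -3.15 to -1.51 with 1 library or sample left out. Fads2 (delta-6 desaturase), the first and rate-limiting step of polyunsaturated fatty acid synthesis, held 4229.9, 7448 and 4725 normalized counts in controls, 13565 in DMHCA libraries 1 and 3 and 3452 in DMHCA library 2. One DMHCA sample was thus above and the other below all controls (log2 0.64, standard error 0.57). Fads1 (delta-5 desaturase) held 2513, 3619.8 and 5229 normalized counts in controls, 4407 in DMHCA libraries 1 and 3 and 659 in DMHCA library 2. DMHCA libraries 1 and 3 lay within the control range and DMHCA library 2 below it (log2 -0.58, standard error 0.74). Without DMHCA library 2 the log2 difference of Fads1 was 0.26, and without DMHCA libraries 1 and 3 it was -2.53. For Fads2 these values were 1.35 and -0.67. The summed Fads counts gave a log2 difference of 0.0024 (standard error 0.61).

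**Figure D3:**
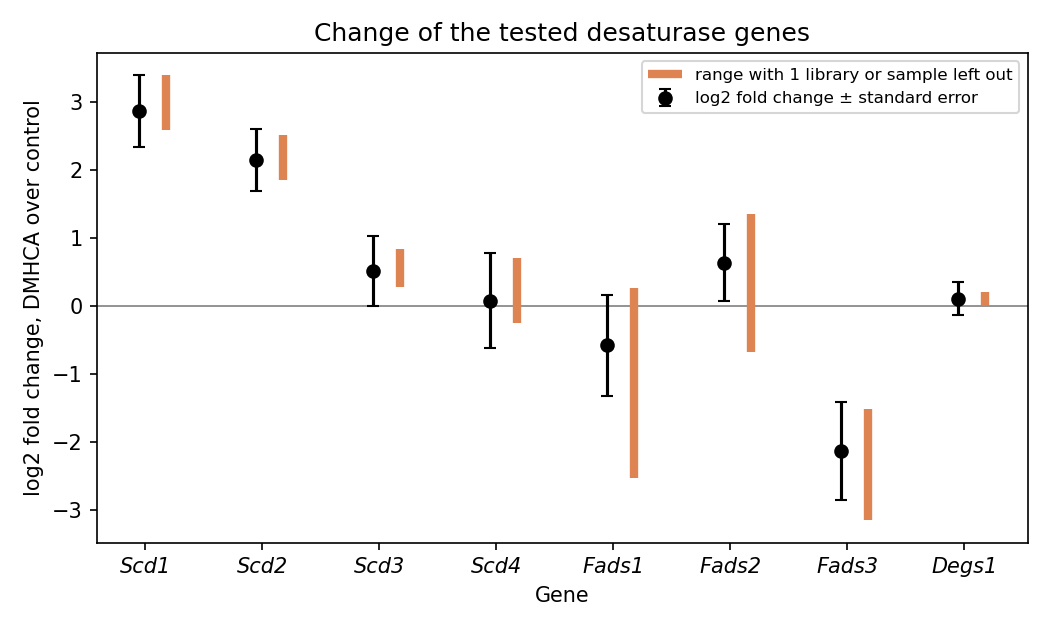
Log2 fold change of the 8 tested desaturase genes, DMHCA over control, from edgeR (black point, bar: standard error) and the range of the value with 1 library or sample left out (orange line). Only Scd1, Scd2, Scd3, Fads3 and Degs1 keep their sign over the orange range, which for Fads1 runs from -2.53 to 0.26.

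The 2 DMHCA samples were therefore alike in Scd1 and Scd2 (1.01 and 1.03 times apart) and unlike in the Fads cluster. Scd3 and Scd4, at low counts, were 1.33 and 1.20 times apart, with DMHCA libraries 1 and 3 higher. DMHCA library 2 had the lowest value of all 5 samples for Fads1, Fads2 and Fads3, while 20.4% of the 14160 genes with a mean of at least 100 normalized counts were lowest there. Of the 7 neighbors that reach to within 300 kb of the cluster, 5 (Gm50321, Fth1, Rab3il1, Tmem258 and Dagla) were also lowest in this library. DMHCA libraries 1 and 3 exceeded it 6.69 times for Fads1, 3.93 times for Fads2 and 3.02 times for Fads3. The log2 ratio of DMHCA library 2 to DMHCA libraries 1 and 3 was lower than that of Fads1 in 1.61% of genes, than that of Fads2 in 3.32% and than that of Fads3 in 4.99%. In each neighboring gene examined this gap was smaller. Fen1, a DNA repair nuclease gene that starts 157.6 kb from the cluster's start and just beyond Fads1, had a log2 ratio of -0.26, as did Tmem258, and Rab3il1, on the other side, had -0.33. Dagla and Gm50321, farther out, had -1.22 and -1.17. Between groups, 3 of the 7 neighbors were lower with DMHCA without overlap, namely Tmem258, Dagla and the ferritin heavy chain gene Fth1 (log2 -2.06, standard error 0.62), and 1 was higher, Fen1 (log2 0.57, standard error 0.31). Over all genes tested these shares were 12.2% and 13.8%. Around the Scd cluster, the 7 neighbors that reach to within 300 kb differed between groups by log2 -0.0046 to 0.51, and 2 of them, Dnmbp and Hif1an, were higher and 0 lower without overlap. Summed markers of skeletal muscle were at 592 to 1050.1 TPM in controls, 921 TPM in DMHCA libraries 1 and 3 and 266 TPM in DMHCA library 2, which was also the lowest sample for the secretory markers. The part of these cells in the Fads values was not tested. The neighbors were examined after the Fads values had been seen.

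**Figure D4:**
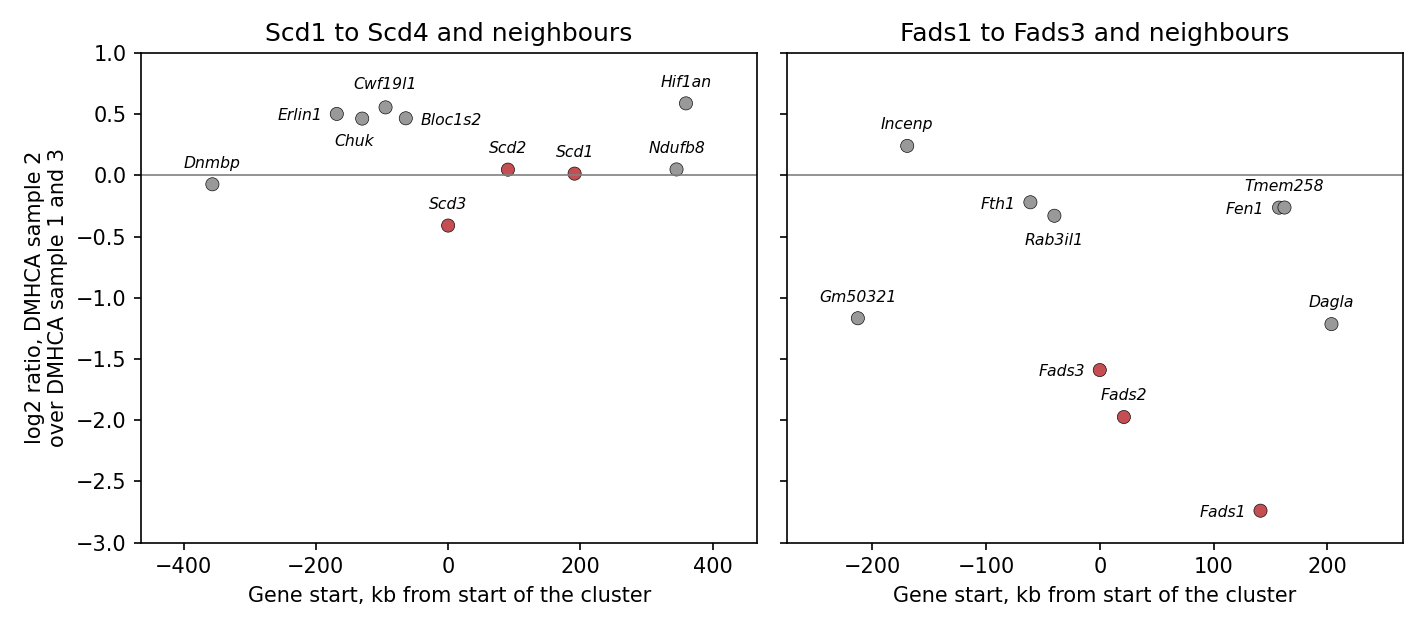
Log2 ratio of normalized counts (after adding 1) in DMHCA library 2 over DMHCA libraries 1 and 3, against each gene's start in kilobases from the start of its cluster, for the Scd cluster (left) and the Fads cluster (right) with neighbors within 300 kb (grey). The Fads genes (red) lie at -2.74 to -1.59, Scd1 and Scd2 at 0.01 and 0.05, and Scd3 at -0.41.

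Degs1 varied least. It held 3439, 4427 and 3809 normalized counts in controls and 4243 and 4155 after DMHCA, with a log2 difference of 0.11 (standard error 0.24), and its SD among controls of 0.18 on the log2 scale was above that of only 13.5% of the genes tested. On the TPM scale its DMHCA samples, 48.3 and 53.3 TPM, lay above all controls (38.4 to 41.5 TPM), so the overlap of the groups depends on the scale for this gene. Degs2, the paralog that also makes phytoceramide in skin and gut, had expected counts of 3 to 9.29 per library and was not tested.

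Across the 19426 genes tested, edgeR's quasi-likelihood test gave an adjusted p under 0.05 to 0 genes (0%), and the smallest adjusted p was 0.644. Accordingly 0 of the 8 desaturase genes passed. Without adjustment, 3.53% of all genes had p under 0.05 and were higher with DMHCA, among them Scd1 and Scd2, and 4.09% were lower, among them Fads3. The groups did not overlap with DMHCA higher in 13.8% of genes and in 2 of the 8, and with DMHCA lower in 12.2% of genes and in 1 of the 8. DESeq2, the program named in the study's methods, when run on all 6 libraries called 1.46% of genes higher and 2.99% lower at an adjusted p under 0.05, with Scd1 and Scd2 among the higher and Fads3 among the lower. That run, like each DESeq2 run on 6 libraries below, enters the near-identical DMHCA libraries 1 and 3 as 2 replicates. On the 5 samples DESeq2 called 0.249% higher and 0.967% lower, with Scd1 and Scd2 among the higher and Fads3 not called. These counts come from the contrast for which the family was chosen and are printed only to place it. The median log2 difference was 0.31 over the 8 desaturase genes and -0.03 over all genes.

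The genes whose values ran most like those of Scd1 and Scd2 over the 5 samples were found by the root mean square difference of centered log2 normalized counts, over 14166 genes with a mean of at least 100. Efhd1, which encodes a calcium-binding protein of mitochondria, was nearest to Scd1 at 0.44, with 261, 80.8 and 422 normalized counts in controls and 1251 and 1705 in the DMHCA samples. Gm45819 (0.55), Rec114 (0.58) and Sidt1 (0.64) were also near, and like Scd1 they were higher in both DMHCA samples than in any control. St3gal5, the ganglioside GM3 synthase, was nearest to Scd2 at 0.24, followed by Kctd15 (0.25), Slc26a9 (0.30), Stard13 (0.32) and Snx22 (0.34). In 4 of these 5, as in Scd2, control library 1 was the highest control and control library 3 the lowest, the exception being Snx22, in which control library 2 was slightly above control library 1. Scd1 and Scd2 themselves were 0.93 apart. All these distances rest on the same 5 samples and on their shared depth, and carry no test. The group difference and the order of the controls in these genes follow largely from their choice by closeness to Scd1 or Scd2.

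Genes that act with the desaturases were examined in 6 lists, with edgeR's quasi-likelihood test over all 19426 genes, and 0 genes of any list had an adjusted p under 0.05. Electrons for desaturation come through Cyb5a, Cyb5b and the Cyb5r genes, and of these 7 genes 0 had an unadjusted p under 0.05, against 3.53% of all genes higher and 4.09% lower, with a median log2 difference of 0.20. Cyb5r3, the main reductase of this chain, was at 10433 ± 2296 normalized counts in controls (SD, n = 3) and at 12348 ± 399 in DMHCA samples (SD, n = 2), a 1.18-fold difference (log2 0.24, standard error 0.29). Cyb5r4 (log2 -0.36), Cyb5rl (log2 0.44) and Cyb5r2 (log2 1.69, standard error 0.72) completed the 4 with the smallest p, and Cyb5r2, at 130 and 420 mean normalized counts, was the 1 gene of the 7 that was higher without overlap, against 13.8% of all genes, a share near the background. DESeq2 called 0 of the 7 on 5 samples or on 6 libraries, where it called 0.249% and 1.46% of all genes higher.

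Saturated acyl-CoA for the desaturases comes from cytosolic fatty acid synthesis, elongation and activation. Of 24 genes tested, 3 had an unadjusted p under 0.05 and were higher with DMHCA, 0 were lower, and 7 were higher without overlap, with a median log2 difference of 0.25. Over all genes, 3.53% were higher at that p and 13.8% higher without overlap. Mid1ip1, an activator of acetyl-CoA carboxylase, was at 1325 ± 153 normalized counts in controls (SD, n = 3) and at 2912 ± 803 in DMHCA samples (SD, n = 2), a 2.20-fold difference (log2 1.14, standard error 0.28, adjusted p = 0.644 by edgeR). Acacb, a mitochondrial acetyl-CoA carboxylase, was 2.28-fold apart (log2 1.19, standard error 0.47) and Acly, which makes cytosolic acetyl-CoA from citrate, 2.03-fold (log2 1.02, standard error 0.41). In both, DMHCA library 2 was the highest sample, at 2766 and 43819.7 normalized counts. Fasn, fatty acid synthase, had 13897, 9896 and 30130.2 normalized counts in controls and 33176 and 35597 after DMHCA, a 1.91-fold difference (log2 0.94, standard error 0.49) that was smaller than that of Scd1 in the same samples. DESeq2 on 6 libraries called 1 gene of the 24 higher, Mid1ip1, against 1.46% of all genes, and on 5 samples 0, against 0.249%.

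Of 21 regulators of desaturase transcription, 2 were higher and 1 lower at an unadjusted p under 0.05, against 3.53% and 4.09% of all genes, and the median log2 difference was 0.28. Srebf1 held 35427, 20550.2 and 30356 normalized counts in controls and 137565 in DMHCA libraries 1 and 3 and 93576 in DMHCA library 2, a 4.02-fold difference (log2 2.01, standard error 0.39, adjusted p = 0.644 by edgeR). Nr1h3, which encodes LXR alpha, was lower in both DMHCA samples, with 434, 368 and 1027 normalized counts in controls and 237 and 205 after DMHCA (log2 -1.46, standard error 0.59). Nr1h2, which encodes LXR beta, was more abundant, with means of 4944 normalized counts in controls and 6508 after DMHCA (log2 0.40, standard error 0.29). It was higher without overlap, as were 13.8% of all genes. Ppard, a fatty acid receptor gene, was 1.60-fold apart (log2 0.68, standard error 0.27) and Rxra, which encodes the partner of LXR, 1.39-fold (log2 0.48, standard error 0.28). DESeq2 on 6 libraries called 1 of the 21 higher, Srebf1, against 1.46% of all genes, and on 5 samples 1, against 0.249%. Among 13 LXR target genes tested, a list that shares Srebf1 and Nr1h3 with the regulators and Fasn with the synthesis genes, 3 were higher and 1 lower at an unadjusted p under 0.05, against 3.53% and 4.09% of all genes, and the median log2 difference was 0.69. Abca1, the cholesterol efflux pump, had means of 5874 and 15112 normalized counts (log2 1.36, standard error 0.35), and Mylip, which targets the LDL receptor for degradation, 3786 and 6860.3 (log2 0.86, standard error 0.33). Without overlap, 6 were higher and 3 lower, against 13.8% and 12.2% of all genes, the lower ones being Nr1h3, Lpl (log2 -1.76) and Apoe (log2 -0.53). DESeq2 on 6 libraries called 3 of the 13 higher, Srebf1, Abca1 and Apoc1, against 1.46% of all genes, and on 5 samples 1, against 0.249%. The groups overlapped for Apoc1, with 1510, 279.9 and 3961 normalized counts in controls, 18847 in DMHCA libraries 1 and 3 and 2067 in DMHCA library 2.

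Of 22 genes of ceramide synthesis and turnover around Degs1, 1 was higher and 1 lower at an unadjusted p under 0.05, with a median log2 difference of -0.14. These counts are near the shares over all genes, 3.53% and 4.09%. Cers6, a ceramide synthase that prefers palmitoyl-CoA, was at 1086 ± 209.8 and 2523 ± 645 normalized counts, a 2.32-fold difference (log2 1.22, standard error 0.31, adjusted p = 0.644 by edgeR). Asah1, the lysosomal ceramidase, was at 7613 and 4285 mean normalized counts (log2 -0.83, standard error 0.33). Cers4 and Sptlc3 had log2 differences of -1.73 (standard error 0.82) and -1.48 (standard error 1.20). DESeq2 on 6 libraries called 1 of the 22 higher, Cers6, against 1.46% of all genes, and on 5 samples 0, against 0.249%. Of 6 other membrane desaturases and related hydroxylases tested, 1 was higher at an unadjusted p under 0.05, against 3.53% of all genes. This was Tmem189, which makes the vinyl ether bond of plasmalogens, with 5630.3, 6338 and 4207 normalized counts in controls, 11046 in DMHCA libraries 1 and 3 and 34991 in DMHCA library 2 (log2 2.09, standard error 0.50). Its annotated locus overlaps Gm20431 on the same strand, so its reads may be divided between them. Fads6 (log2 1.25, standard error 0.77) was also highest in DMHCA library 2, in contrast to Fads1, Fads2 and Fads3. Msmo1, a sterol methyl oxidase, and Sc5d, a sterol desaturase, both of cholesterol synthesis, had log2 differences of -0.65 and -0.27. DESeq2 on 6 libraries called 1 of these 6 genes higher, Tmem189, against 1.46% of all genes, and on 5 samples 1, against 0.249%.

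**Figure D5:**
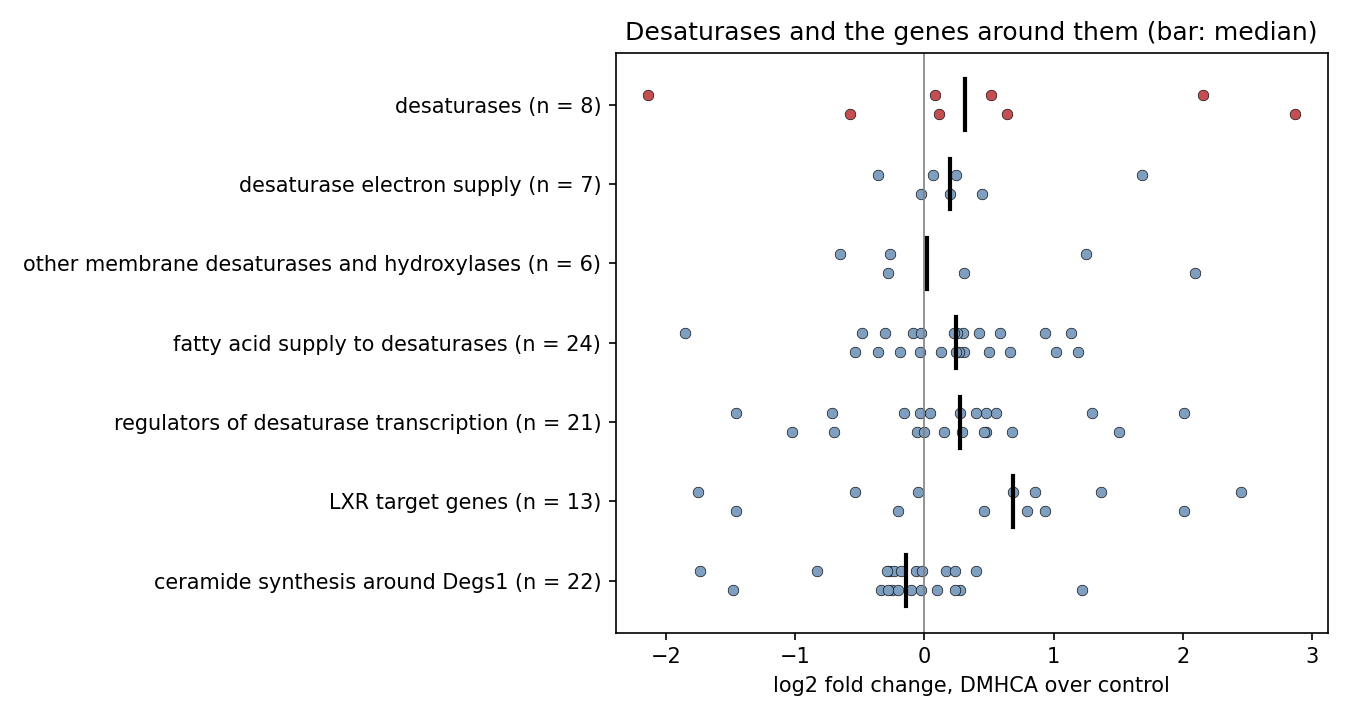
Log2 fold change, DMHCA over control, of the 8 tested desaturase genes (red) and of the genes tested in 6 lists around them (blue), with each list's median as a black bar. The medians lie between -0.14 for the ceramide genes and 0.69 for the LXR targets, and Scd1 at 2.87 lies farthest to the right.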

How the data were processed

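RNA of 6 tumor libraries, 3 per group, was measured by paired-end sequencing. The authors checked reads with FastQC 0.11.9, trimmed adapters with Cutadapt 2.9 and counted them with RSEM 1.3.1 on a Bowtie2 2.4.1 index of the Ensembl mouse genome (mm10), with the strand setting not given in the sources used here. Per library the authors deposited expected counts, which are estimates without normalization and need not be whole, and TPM, scaled by RSEM to the same sum. Deposited FPKM values were not used. Expected counts were rounded. TPM served for levels between genes and for the cell type markers, and counts for fold changes and their tests.

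Samples were grouped by their titles. Pairs within a group were compared on genes averaging 100 counts or more, and a pair with a coefficient of variation under 0.1 and more than 5 times below every other pair was summed. Counts were tested with edgeR 4.0.16 in R 4.3.3 (TMM, filterByExpr with a minimum count of 10 and total of 15, quasi-likelihood F-test, Benjamini-Hochberg adjustment over 19426 genes), after a check on simulated counts with known changes. Standard errors were derived from the fold change and its F statistic. Alternatives used DESeq2 1.42.0, other filters, size factors and dispersions, a replicate block and left-out libraries. The genes, lists and rules were chosen with earlier results of these data known: all 9 desaturases, the 4 genes of smallest p in each list, and the 5 nearest in pattern to Scd1 and to Scd2, of which 1 is not reported here. Positions are from GENCODE M21 and promoters from RefSeq. Protein sequences were not compared here. Tables and plots used pandas 2.3.3 and matplotlib 3.10.9.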

Additional observations from a re-analysis of the deposited data

How the results depend on the processing

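Counts with an adjusted p under 0.05 depended on the tool, on the filter and, in DESeq2, on whether DMHCA libraries 1 and 3 entered as 1 sample. They were 0 higher and 0 lower genes in edgeR on 5 samples, with any library or sample left out (lowest 0, highest 0), with DESeq2's size factors, robust dispersions or the stricter filter, and on 6 libraries. With every gene that had a count kept, edgeR gave 4 higher genes, among them Scd1, and 12 lower ones. As above, a call of Scd1 comes from the contrast for which the family was chosen. DESeq2 gave 50 higher and 194 lower on 5 samples and 291 higher and 596 lower on 6 libraries, where the near-identical pair counts as 2 replicates. Of the lists, DESeq2 on 5 samples called 1 of 6 other desaturases or hydroxylases, 1 of 21 regulators and 1 of 13 LXR targets higher (0.249% of all genes), and on 6 libraries 1, 1 and 3, with 1 of 24 synthesis genes and 1 of 22 ceramide genes (1.46% of all genes). The cause was not tested. With 1 library or sample left out, the log2 fold change ranged from 2.59 to 3.39 for Scd1, 1.86 to 2.52 for Scd2, 0.28 to 0.84 for Scd3, -0.24 to 0.71 for Scd4, -2.53 to 0.26 for Fads1, -0.67 to 1.35 for Fads2, -3.15 to -1.51 for Fads3 and 0.02 to 0.21 for Degs1. Reversed values were -0.24 and -0.09 for Scd4 without control library 1 or 2 and -0.07 without DMHCA libraries 1 and 3, 0.26 for Fads1 without DMHCA library 2, and -0.67 for Fads2 without DMHCA libraries 1 and 3. Where 1 DMHCA sample was left, it was assumed to vary like the controls. Over the other settings the signs held, with 2.77 to 2.99 for Scd1, 2.10 to 2.23 for Scd2 and -2.17 to -1.84 for Fads3. The summed Scd counts gave 2.67 in place of the values of Scd3 and Scd4, and the summed Fads counts 0.0024 in place of those of Fads1 and Fads3. Shares of expected counts in place of TPM were 77.7% for Scd1, 22.3% for Scd2, 0.0438% for Scd3, 0.0049% for Scd4, 99.9% for Degs1 and 0.131% for Degs2 in DMHCA samples, and 0.0294% for Scd4 in controls.

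Same-numbered control and DMHCA libraries are different mice, so the numbers were not taken as pairs. Their deviations from the group means correlated at -0.05 to 0.35 over 3 pairs, against -0.39 to 0.34 for differently numbered libraries. These ranges overlap, and with 3 pairs they do not decide on pairing. With the replicate number as a block on 6 libraries, edgeR gave 0 higher and 0 lower genes, and the log2 fold change was 2.99 for Scd1 and 2.23 for Scd2. The counts of Scd4 and Degs2 were the lowest of the family, and Degs2 was not tested.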

Other observations

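RSEM weights a gene's length by its estimate of the transcript mix, and this length moved between libraries that were otherwise nearly equal. For Fads3, DMHCA libraries 1 and 3 held 649 and 647 expected counts but mean transcript lengths of 3181 and 2689.9 bases, and so 5.34 and 6.74 TPM. Lengths of Scd3 ran from 1720.3 to 2699 bases over the 6 libraries. For Scd1 they stayed between 4783 and 4825 bases and for Scd2 between 5452 and 5455 bases.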
